A study of Mus musculus with 72 samples.

Results

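Acute phase proteins are plasma proteins whose output by the liver climbs or drops when the body meets infection or injury. Measured here were 10 genes, out of 55573 genes in the count table, all but Saa4 of the rising kind. Among them were the serum amyloid A genes Saa1, Saa2, Saa3 and Saa4, the last a constitutive form. The others were the orosomucoid genes Orm1, Orm2 and Orm3, lipocalin 2 (Lcn2), haptoglobin (Hp) and serum amyloid P (Apcs). The symbols of all members were matched to the Ensembl identifiers of the table. All 10 had a row and passed the filter on low counts in every comparison. Liver RNA came from 72 male C57BL/6 mice (C57BL/6J background, per the methods) in 4 arms of 18. SPF mice kept a conventional, specific pathogen free microbiota. GF mice were rederived germ free and lived in isolators. WT mice carried the floxed allele Bmal1 fl/fl without Cre, and LKO mice carried Bmal1 fl/fl with Albumin-Cre. All 72 mice thus had the floxed allele, and Albumin-Cre acts in hepatocytes, so that other liver cells of LKO mice kept Bmal1. Within each arm 3 mice were taken at each of 6 zeitgeber times (ZT, hours after lights on): 2, 6, 10, 14, 18 and 22. Per the methods of the study, mice were housed singly from 10 to 14 weeks of age, ate autoclaved chow freely, and were killed about 5 weeks later.

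Hepatocytes transcribe acute phase genes when cytokines of the interleukin 6 and interleukin 1 families reach them. The receptors act through STAT3, NF-κB and the C/EBP factors, and glucocorticoids strengthen the response. Bacterial products that arrive from the gut through the portal vein are one known source of such cytokines, largely by way of Kupffer cells, the resident macrophages of the liver. Saa1 and Saa2 encode the acute serum amyloid A proteins, which ride on high density lipoprotein. Saa4 encodes the constitutive form, and Saa3 is made mostly outside hepatocytes, by macrophages and adipose tissue. Orosomucoids bind drugs and lipids, Lcn2 binds bacterial siderophores and so withholds iron, Hp binds free hemoglobin, and Apcs is the pentraxin that serves as the main acute phase pentraxin of the mouse. BMAL1 is the partner of CLOCK in the positive arm of the circadian oscillator and binds E-box motifs.

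The members fall in few places in the genome. By the GRCm38 annotation, Saa1 (chr7:46740497-46742980, minus strand), Saa2 (chr7:46751790-46754313, plus), Saa3 (chr7:46711998-46715700, minus) and Saa4 (chr7:46727998-46732603, minus) formed 1 cluster. Orm1 (chr4:63344560-63348163), Orm3 (chr4:63356162-63359511) and Orm2 (chr4:63362449-63365878) lay in a row on the plus strand. Lcn2 (chr2:32384633-32388252), Hp (chr8:109575128-109579172) and Apcs (chr1:172893961-172895041) stood alone, all on the minus strand. All 10 are annotated as protein coding.

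The promoters of the Saa1 and Saa2 pair and of the Orm2 and Orm3 pair are shown because the members of each pair are near copies, and reads from near copies are hard to assign. The sequences are the 250 bases before the RefSeq start on GRCm38.p6, 5′ to 3′ on the strand of the gene, at chr7:46742981-46743230 for Saa1, chr7:46751583-46751832 for Saa2, chr4:63362199-63362448 for Orm2 and chr4:63355908-63356157 for Orm3. Capitals mark matches to the C/EBP letters TTGCNNAA or to the RORE core AGGTCA on either strand.
Saa1: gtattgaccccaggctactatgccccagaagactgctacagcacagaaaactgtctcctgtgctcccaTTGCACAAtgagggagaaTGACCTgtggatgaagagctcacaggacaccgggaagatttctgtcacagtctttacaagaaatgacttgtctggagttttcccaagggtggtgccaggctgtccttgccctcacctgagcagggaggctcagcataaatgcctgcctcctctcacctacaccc
Saa2: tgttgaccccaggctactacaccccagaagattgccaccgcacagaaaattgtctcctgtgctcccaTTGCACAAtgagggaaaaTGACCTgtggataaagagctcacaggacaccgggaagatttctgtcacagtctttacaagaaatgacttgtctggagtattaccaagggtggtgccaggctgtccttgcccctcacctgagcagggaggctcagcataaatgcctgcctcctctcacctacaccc
Orm2: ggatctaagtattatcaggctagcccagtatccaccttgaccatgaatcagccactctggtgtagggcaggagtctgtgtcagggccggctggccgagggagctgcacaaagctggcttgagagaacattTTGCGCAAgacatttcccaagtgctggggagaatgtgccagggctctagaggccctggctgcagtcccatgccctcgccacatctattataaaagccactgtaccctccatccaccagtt
Orm3: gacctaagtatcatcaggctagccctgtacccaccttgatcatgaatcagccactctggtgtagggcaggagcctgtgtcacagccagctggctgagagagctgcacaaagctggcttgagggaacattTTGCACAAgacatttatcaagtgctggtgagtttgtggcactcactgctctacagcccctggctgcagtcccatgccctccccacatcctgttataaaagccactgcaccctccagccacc
Promoters were found in the RefSeq table for 8 of the 10 members (not for Orm1 and Hp). The C/EBP letters were in 7 of these 8 windows, Apcs being the exception, against 9.57% of 32536 mouse promoters of the same length. In Saa1 and Saa2 the match lay at -182 to -175 and -183 to -176 from the start, and in Orm2 and Orm3 at -120 to -113 and -121 to -114. The RORE core was in 3 windows (Saa1, Saa2 and Saa4; 14.04% of all promoters), the STAT letters TTCNNNGAA in 1 (Apcs; 7.04%), and neither the E-box CACGTG (6.04%) nor the D-box TTATGTAA (0.81%) was found in any of the 8. These are matches of letters only.

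Identity over the aligned promoters was 94.8% for Saa1 and Saa2 and 85.5% for Orm2 and Orm3. The transcripts of Saa1 and Saa2 were 93.9% identical, those of Orm1 and Orm2 91.0%, Orm2 and Orm3 88.0%, and Orm1 and Orm3 86.1%. Of all 50-base stretches, the read length used, 14.8% in Saa1, 11.8% in Saa2, 20.4% in Orm1 and 22.7% in Orm2 also occurred in another gene, against 3.6% in Saa3 and in Orm3, 1.0% in Saa4, and 0 in Lcn2, Hp and Apcs. By default the counting tool leaves out a read that maps to several places. Levels of the Saa1 and Saa2 pair and of the Orm genes are therefore less certain than the other levels. Whether a change given for 1 copy also holds reads of its neighbor was not checked.

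The libraries held 17369927 to 22076113 counted reads each (median 19106726). Levels are given as CPM, each count scaled to a library total of 1000000, with the totals first adjusted by TMM scaling factors. In 4 libraries, clock genes or liver genes stood apart from the label. The library labelled SPF LKO ZT14 replicate 2 had 0.22 CPM of Npas2, a gene that is high when Bmal1 is lost, against 24.0 and 25.2 in the other SPF LKO libraries at ZT14 and 0.053 to 0.206 in SPF WT. Its albumin (Alb) level, at 83336 CPM, lay in the SPF WT range of 59344 to 90459 and above the 37168 and 49900 of its own group. The library labelled SPF LKO ZT18 replicate 1 had 1.83 CPM of Npas2 against 27.6 and 36.4. For the library with the label SPF WT ZT14 replicate 3, Bmal1 itself (Arntl) was at 2.11 CPM against 15.8 and 19.3 and the clock repressor Nr1d1 at 84.8 against 3.07 and 8.55. For the library with the label GF WT ZT6 replicate 3, Arntl was at 8.24 CPM against 1.64 and 2.42, and Nr1d1 at 9.39 against 49.1 and 51.1. Its Npas2 (0.12 CPM) and Alb (113307 CPM) went with the WT label, GF LKO livers at ZT6 having 22.2 to 30.6 and 25481 to 33100. At ZT14 total Arntl overlapped between the genotypes, at 10.4 to 13.1 CPM in SPF LKO and 2.11 to 19.3 in SPF WT, where 2.11 was replicate 3. The library labelled SPF LKO ZT18 replicate 1 had 29.3 CPM of Arntl against 11.4 and 11.9. Reads inside and outside the floxed part were not counted apart. Pooled changes that passed are given with and without these 4 libraries.

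Levels per kilobase of annotated exon spanned 3 orders of magnitude among the members. Hp was highest in all 4 arms, at 1824 CPM per kb ± 430 (SD) in SPF WT, 1411 ± 363 in SPF LKO, 2118 ± 256 in GF WT and 1696 ± 279 in GF LKO. Orm1 came next, at 1107 ± 309, 931 ± 380.0, 1302 ± 240.0 and 1253 ± 224. Saa4 stood at 272.5 ± 120 and Apcs at 70.5 ± 26.2 in SPF WT, and this order was turned in GF LKO, where Apcs was at 177 ± 33.9 and Saa4 at 113 ± 37.1. Saa3 was last in every arm, between 2.50 ± 3.10 in SPF WT and 0.51 ± 0.17 in GF LKO. Neighbors in the order overlapped in their range over libraries except Orm1 with the gene after it in SPF WT, SPF LKO and GF LKO, Saa4 with Apcs in GF WT, and the fourth gene with the fifth in GF WT and GF LKO. Annotated exons of Saa1 and Saa2 are together several times longer than their annotated protein coding transcripts, which lowers their values per kb. Over the transcript length, the median of Saa1 was 60.05 CPM per kb in SPF WT and 16.3 in SPF LKO.

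A small set of livers held the highest levels. The library labelled SPF LKO ZT14 replicate 2 was among the 5 highest of 72 for 8 members (all but Saa3 and Apcs), SPF WT ZT6 replicate 2 for 8 (all but Saa4 and Apcs), SPF WT ZT2 replicate 1 for 6 and SPF WT ZT6 replicate 3 for 5. GF LKO ZT10 replicate 2 was among the 5 highest for Lcn2, Hp and Apcs. Across libraries of 1 arm, Saa1 spanned 29.4-fold in SPF WT, 79.1-fold in SPF LKO, 13.9-fold in GF WT and 8.03-fold in GF LKO.

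**Figure D1:**
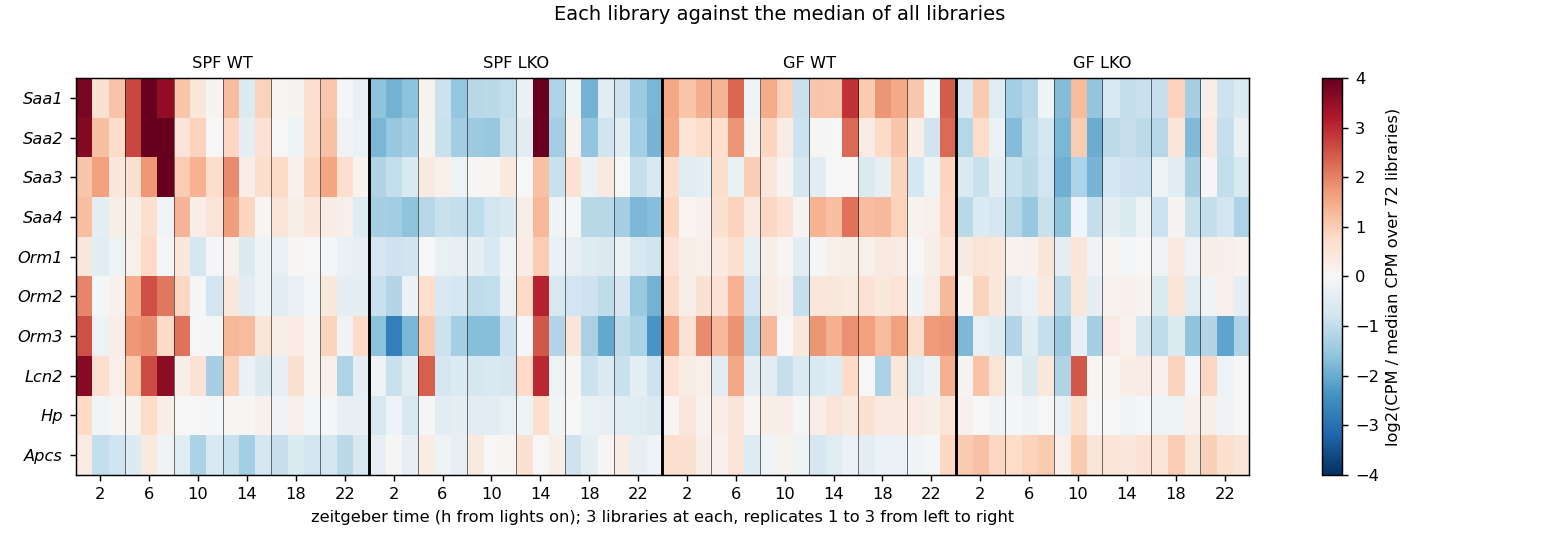
Level of each of the 10 members (y axis) in each of the 72 libraries (x axis, ordered by arm and ZT), as the log2 ratio of its CPM to the gene's median over all 72 libraries. High values of many members line up in single libraries, such as SPF LKO ZT14 replicate 2 and SPF WT ZT6 replicate 2, each among the 5 highest for 8 members.

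The livers with high levels differed in markers of immune cells. Over 6 Kupffer cell markers, the summed level ran from 201 to 499 CPM in SPF WT (median 278), 192 to 307 in SPF LKO (242), 167 to 323 in GF WT (255) and 127 to 281 in GF LKO (211). Over 7 neutrophil markers it ran from 0.21 to 21.3 CPM in SPF WT, 0.98 to 6.26 in SPF LKO, 0.11 to 6.30 in GF WT and 0.23 to 4.26 in GF LKO, with the defining markers Ly6g and Ngp at 3 counts or fewer in every library. SPF WT ZT6 replicate 3, ZT6 replicate 2 and ZT2 replicate 1 held the 3 highest Kupffer sums of the 72 (499, 378 and 348 CPM) and the 3 highest neutrophil sums (11.7, 21.3 and 14.2 CPM). The library labelled SPF LKO ZT14 replicate 2 ranked 6 for Kupffer cell markers (307 CPM) and 8 for neutrophil markers (5.46 CPM), whereas GF LKO ZT10 replicate 2 ranked 65 and 52. The part of these cells in the results that follow was not tested. In bulk liver, fewer cells of a type and less RNA per cell cannot be told apart. The 6 hepatocyte markers were present in every library. Relative to WT livers, 1 fell in SPF LKO and 3 fell in GF LKO, against 11.5% and 15.2% of all genes tested. Among them was Alb, which fell by 0.98 on the log2 scale in SPF and by 1.70 in GF mice.

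To ask what loss of hepatocyte Bmal1 does to these genes, LKO and WT livers were compared with all times pooled. In both microbial states most members were lower in LKO livers, while Apcs was higher. In SPF mice 5 members fell (Saa2, Saa3, Saa4, Orm3 and Hp) and 1 rose (Apcs) at an adjusted p under 0.05, against 11.5% of all genes tested called lower and 11.6% called higher. In GF mice 6 fell (Saa1, Saa2, Saa3, Saa4, Orm3 and Hp) and Apcs rose, against 15.2% lower and 15.6% higher. The median change of the 10 members was -1.05 in SPF and -0.66 in GF, with -0.01 and 0.01 over all genes tested (log2). The SPF comparison turned on 1 library. With the library labelled SPF LKO ZT14 replicate 2 dropped, or all 4 libraries named above, all 10 members passed the threshold in SPF mice, 9 lower and Apcs higher, and without the 4 libraries Orm2 also fell in GF mice (-0.45, adjusted p = 0.0244). Without the 4, the SPF changes were -3.14 for Saa2, -1.75 for Saa3, -1.51 for Saa4, -2.07 for Orm3, -0.47 for Hp and 0.58 for Apcs. The GF changes were then -1.765 for Saa1, -1.39 for Saa2, -0.85 for Saa3, -1.63 for Saa4, -2.17 for Orm3, -0.33 for Hp and 0.69 for Apcs.

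To ask what the microbiota does, GF and SPF livers of 1 genotype were compared. These comparisons share their libraries with the genotype comparisons. In each genotype 4 members passed, not all in 1 direction. In WT mice, Saa2, Saa3 and Lcn2 fell in GF livers (3 of 10, against 17.7% of genes tested called lower) and Apcs rose (1 of 10, against 14.2% called higher). In LKO mice, Saa3 fell (1 of 10, against 18.4% lower), and Orm1, Hp and Apcs rose (3 of 10, against 18.1% higher). The median change of the members was -0.07 in WT and -0.12 in LKO, and -0.02 over all genes in each. Without the 4 libraries, Saa1 (0.79, adjusted p = 0.0178) and Orm2 (0.56, adjusted p = 0.0239) joined the members that were higher in GF LKO livers. The members that passed with all libraries passed without the 4 as well, with changes of -1.16 for Saa2 (adjusted p = 0.0424), -1.504 for Saa3, -1.297 for Lcn2 and 0.62 for Apcs in WT, and of -0.61 for Saa3, 0.55 for Orm1, 0.36 for Hp and 0.73 for Apcs in LKO. With 10 members, these shares are not far from those of all genes.

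**Figure D2:**
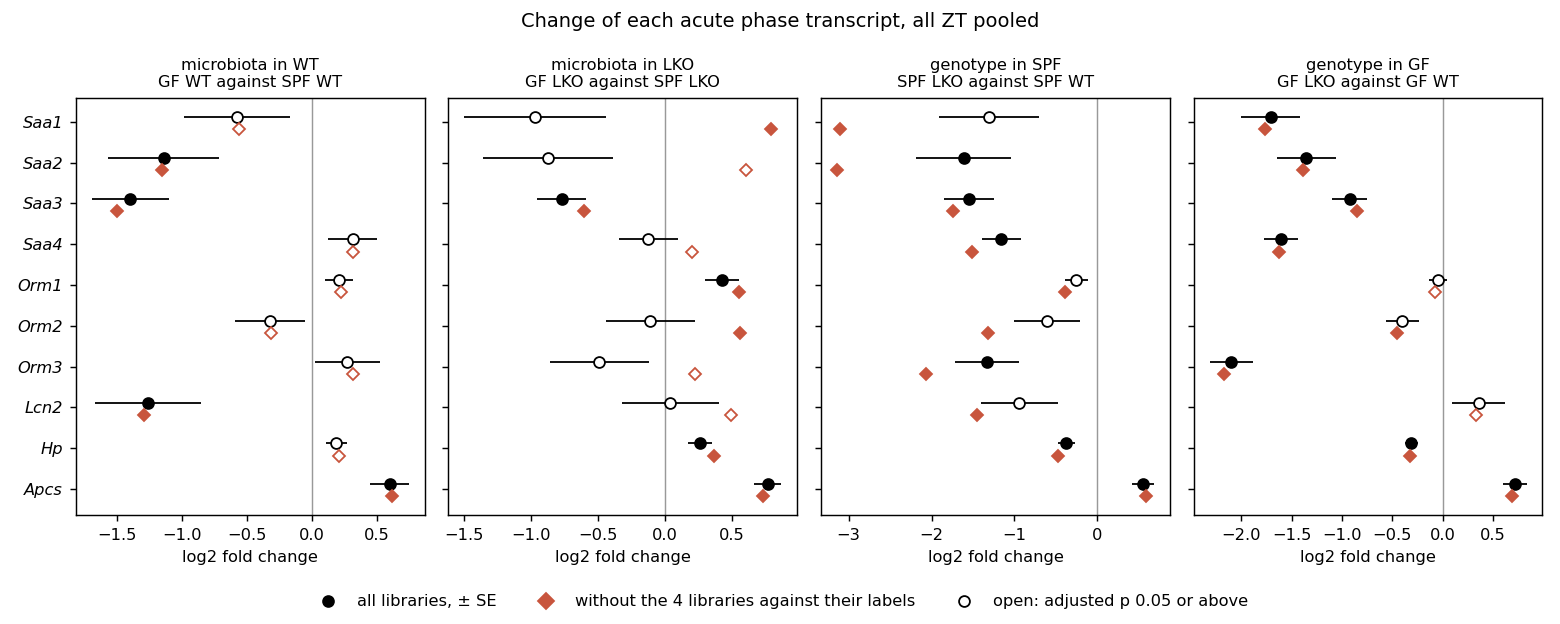
Log2 fold change ± SE of the 10 members in the 4 pooled comparisons (LKO over WT, GF over SPF), in black with all libraries and as red diamonds without the 4 libraries that stood apart from their labels; open symbols have an adjusted p of 0.05 or more. In the SPF genotype panel all 10 red symbols are filled, and Saa1 moves from -1.31 to -3.11.

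The difference between the genotype effects of GF and SPF mice was tested directly as an interaction over all 72 libraries. None of the 10 members passed with edgeR (0.438% of all genes did), and 1 was under 0.05 before adjustment. With DESeq2 0 passed of the 7 members it tested (Saa1, Saa2 and Orm2 were given no p), and again 1 was under 0.05 before adjustment. In both it was Lcn2, whose genotype change was 1.29 higher in GF than in SPF mice on the log2 scale (95% interval 0.19 to 2.38, adjusted p = 0.606). Saa1 was at -0.40 (interval -1.74 to 0.94), Saa2 at 0.26 (-1.03 to 1.55) and Apcs at 0.15 (-0.20 to 0.51). The values of Saa1 and Saa2 depended on the model and on 1 library. With all libraries kept, Saa1 was at 0.24 with ZT as a covariate and at 0.47 with a replicate block. Saa2 was at 0.55 and 0.73 in these fits. With SPF LKO ZT14 replicate 2 left out, Saa1 was at 1.28 and Saa2 at 1.63, and without all 4 libraries they were at 1.34 and 1.745 (edgeR, adjusted p = 0.557 and 0.230), so that the sign for Saa1 turned. In either case 6 members were under 0.05 before adjustment (Saa1, Saa2, Saa3, Orm1, Orm2 and Lcn2), all with a positive difference, and 0 passed after it.

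Comparisons at single times, with 3 mice a group, placed most of the genotype calls of SPF mice in the light phase. Of 60 member and time combinations, 21 passed in the SPF genotype comparison (4.92% over all genes and times), 13 in the GF genotype comparison (7.99%), 5 in the LKO microbiota comparison (2.71%) and 1 in the WT microbiota comparison (2.89%). At ZT2, 9 of 10 members fell in SPF LKO livers, against 3.24% of genes; Orm1, Orm2, Lcn2 and Hp lost this call without SPF WT ZT2 replicate 1, and Saa1, Saa2, Saa3 and Saa4 kept it in all alternative fits. At ZT6, 6 of 10 fell, against 3.39%. At ZT14 and ZT18, the times of 3 of the 4 libraries that stood apart, no member passed in SPF mice, but only 0 and 2 genes of the whole table did so. In each of the 40 called combinations the values of the 3 and 3 mice did not overlap. A test on the same 3 and 3 values favors such sets, so this adds no support to the calls. Some combinations that were not called did not overlap either, such as Saa1 in SPF mice at ZT10.

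Saa1, an acute form of serum amyloid A, covered a wide range of levels in each arm. In SPF WT livers its lowest, median and highest levels were 14.6, 36.6 and 428.5 CPM, in SPF LKO 5.67, 9.95 and 448, in GF WT 11.4, 50.1 and 158.5, and in GF LKO 6.37, 12.9 and 51.1. All arms overlapped, but the medians of both LKO arms lay below the lowest SPF WT level. In GF mice Saa1 fell by 1.71 ± 0.29 in LKO livers (3.27-fold lower, adjusted p = 1.27e-05), and was lower at all 6 times. In SPF mice the difference was -1.31 ± 0.61 with an adjusted p of 0.118. With the library labelled SPF LKO ZT14 replicate 2 left out, at 448 CPM beside 17.7 and 8.94 in its group, it was -3.00 (adjusted p = 1.22e-06), and without all 4 libraries -3.11 (adjusted p = 1.31e-06). With ZT as a covariate and all libraries kept, Saa1 also fell, by 1.90 (adjusted p = 0.0133).

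Among single times, Saa1 passed in SPF mice at ZT2 and ZT6. At ZT2, Saa1 was at 298, 32.2 and 46.7 CPM in SPF WT and at 7.02, 5.67 and 6.88 in SPF LKO, and fell by 4.28 ± 0.74 (19.5-fold, adjusted p = 0.00355). At ZT6 it was at 135, 428.5 and 251 CPM in SPF WT and at 23.5, 11.6 and 7.22 in SPF LKO, and fell by 4.27 ± 0.64 (19.2-fold, adjusted p = 0.00116). Both SPF WT sets stood wholly above the LKO sets, and both calls held in each alternative fit. At ZT10, ZT18 and ZT22 the difference was -1.68, -0.97 and -1.71 (adjusted p = 0.139, 0.523 and 0.126), each time without overlap. GF WT livers at ZT6 held 54.3, 105 and 19.4 CPM and GF LKO livers 8.29, 9.94 and 18.9, a fall of 2.27 ± 0.60 (adjusted p = 0.0271). That call was lost with a replicate block, and without GF WT ZT6 replicate 2 or GF LKO ZT6 replicate 1 or 2 (highest adjusted p = 0.107).

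Between microbial states Saa1 gave no call with all libraries. It was -0.58 ± 0.41 in WT (adjusted p = 0.289) and -0.97 ± 0.53 in LKO (adjusted p = 0.151). The direction in WT hung on ZT2 and ZT6. When the libraries of those times were left out, Saa1 was higher in GF WT than in SPF WT livers by 0.96 (adjusted p = 0.0303). At ZT18, for example, SPF WT livers had 22.4, 23.1 and 33.2 CPM and GF WT livers 44.2, 72.4 and 60.8. Those sets did not overlap, though no member passed in the WT microbiota comparison at that time.

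Saa2 ran close to Saa1, with a Spearman correlation of 0.96 over the 72 libraries, a description that near-identical sequence also touches. Its lowest, median and highest levels were 10.3, 22.2 and 236 CPM in SPF WT, 3.74, 5.30 and 209 in SPF LKO, 7.35, 20.4 and 64.5 in GF WT, and 3.41, 6.87 and 27.4 in GF LKO. All 4 arms overlapped. In LKO livers Saa2 fell by 1.61 ± 0.58 in SPF (3.06-fold, adjusted p = 0.0385) and by 1.35 ± 0.29 in GF mice (2.56-fold, adjusted p = 0.000345). The SPF call was also unsteady, at -3.14 without the 4 libraries (adjusted p = 1.41e-06) and 0.41 without the ZT2 and ZT6 libraries (adjusted p = 0.735). With both sets left out Saa2 was -1.48 (adjusted p = 1.39e-05). With all libraries the SPF call lay so near the threshold that it was lost in 26 of 49 alternative fits, most of which left out 1 mouse (for example -1.42 and 0.0732 without SPF WT ZT2 replicate 1).

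In GF WT livers Saa2 fell by 1.14 ± 0.43 relative to SPF WT (2.21-fold, adjusted p = 0.0372). At ZT6, SPF WT livers had 86.1, 226.5 and 236 CPM and GF WT livers 21.3, 45.3 and 14.5, a fall of 2.76 ± 0.49 (6.79-fold, adjusted p = 0.0342), with no overlap. This was the only call of a member at a single time in the WT microbiota comparison. The call was lost with a replicate block. It was also lost without SPF WT ZT6 replicate 2 or 3, GF WT ZT6 replicate 1 or 2, or SPF LKO ZT6 replicate 2 or 3 (highest adjusted p = 0.114). Without the ZT2 and ZT6 libraries the pooled change was 0.45 (adjusted p = 0.343), and without SPF WT ZT6 replicate 3 alone it was -0.82 (adjusted p = 0.119).

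Saa3, the form made by macrophages and fat, was the least abundant member per kb and passed in all 4 pooled comparisons. Its lowest, median and highest levels were 2.47, 4.004 and 38.04 CPM in SPF WT, 0.98, 2.29 and 5.13 in SPF LKO, 1.41, 2.16 and 4.55 in GF WT, and 0.61, 1.27 and 2.34 in GF LKO. It fell by 1.40 ± 0.30 in GF WT (2.64-fold, adjusted p = 0.000494), by 0.77 ± 0.18 in GF LKO relative to SPF LKO (1.70-fold, adjusted p = 0.00122), by 1.55 ± 0.30 with genotype in SPF (2.92-fold, adjusted p = 0.000176) and by 0.92 ± 0.17 with genotype in GF mice (1.90-fold, adjusted p = 6.09e-05). These calls held in all 50 alternative fits of each comparison, while its calls with genotype in SPF mice at ZT6 and ZT10 held in 12 of 17 and 7 of 16. SPF WT ZT6 replicate 3 stood out at 38.04 CPM beside 3.53 and 7.64, and was also the library with the highest Kupffer cell sum. Of the 6 Kupffer cell markers, 4 fell in SPF LKO and 2 in GF LKO livers relative to WT, 1 in GF LKO relative to SPF LKO, and 0 in GF WT. In the same order, 11.5%, 15.2%, 18.4% and 17.7% of all genes tested were called lower. The part of these markers in the change of Saa3 was not tested.

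At ZT10 Saa3 was lowest where both the clock gene and the microbiota were lacking. SPF WT livers had 4.65, 5.95 and 3.71 CPM, SPF LKO 2.36, 2.38 and 2.98, GF WT 3.12, 2.49 and 1.44, and GF LKO 0.61, 0.97 and 0.63. The GF LKO set lay below each of the others. Saa3 fell there by 1.81 ± 0.33 relative to SPF LKO (adjusted p = 0.0209) and by 1.66 ± 0.33 relative to GF WT (adjusted p = 0.00353). The first of these was lost without SPF LKO ZT10 replicate 2 or 3, or GF LKO ZT10 replicate 1 or 3 (highest adjusted p = 0.0804), and the second held in all alternative fits.

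Saa4, the constitutive apolipoprotein, was far more abundant than its neighbors, and among the pooled comparisons it passed in both by genotype and in neither by microbiota. Its lowest, median and highest levels were 274, 477 and 1250.0 CPM in SPF WT, 112, 187 and 986 in SPF LKO, 411, 689 and 1776 in GF WT, and 127, 213 and 420 in GF LKO. The GF arms overlapped by little, the lowest WT value being 411 and the highest LKO value 420. In LKO livers Saa4 fell by 1.16 ± 0.24 in SPF (2.23-fold, adjusted p = 0.000333) and by 1.61 ± 0.17 in GF mice (3.04-fold, adjusted p = 9.97e-10). Both calls held in all 50 alternative fits. It passed in 4 of 6 times in SPF and in 5 of 6 in GF mice. At ZT22, SPF WT livers had 483, 453 and 274 CPM and SPF LKO livers 157, 112 and 120.5, a fall of 1.66 ± 0.23 (adjusted p = 0.000873) with no overlap. Between microbial states it was 0.31 ± 0.19 in WT (adjusted p = 0.198) and -0.13 ± 0.22 in LKO (adjusted p = 0.684).

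The orosomucoid genes are near copies of each other. Orm1, the abundant copy, had lowest, median and highest levels of 542, 815 and 1514 CPM in SPF WT, 488, 678 and 1753 in SPF LKO, 639, 1006 and 1331 in GF WT, and 661, 965 and 1250.0 in GF LKO. The arms overlapped widely. Orm1 rose by 0.42 ± 0.12 in GF LKO relative to SPF LKO livers (1.34-fold, adjusted p = 0.00733). At ZT2 this was seen plainly, with 546, 488 and 501 CPM in SPF LKO and 1105, 1250.0 and 1168 in GF LKO, a rise of 1.19 ± 0.19 (2.29-fold, adjusted p = 0.00497) that held in all alternative fits. Its genotype change was -0.25 ± 0.14 in SPF (adjusted p = 0.191; -0.39 and 0.0106 without the 4 libraries) and -0.05 ± 0.09 in GF mice (adjusted p = 0.722).

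Orm2 had lowest, median and highest levels of 6.31, 10.2 and 63.4 CPM in SPF WT, 2.89, 6.51 and 90.0 in SPF LKO, 5.63, 14.5 and 27.9 in GF WT, and 5.31, 11.4 and 19.8 in GF LKO. No pooled comparison passed with all libraries. In the SPF genotype comparison it was -0.61 ± 0.40 (adjusted p = 0.283), and -1.32 without the 4 libraries (adjusted p = 0.00145). At ZT6, SPF WT livers had 29.3, 63.4 and 46.5 CPM against 17.2, 7.06 and 6.65 in SPF LKO, a fall of 2.17 ± 0.48 (4.50-fold, adjusted p = 0.0147) without overlap. It was lost without SPF WT ZT6 replicate 2 or SPF LKO ZT6 replicate 2 or 3 (highest adjusted p = 0.0814).

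Orm3, the rarest copy, fell with genotype in both microbial states. Its lowest, median and highest levels were 2.39, 4.28 and 16.7 CPM in SPF WT, 0.42, 1.14 and 15.7 in SPF LKO, 1.27, 8.02 and 10.4 in GF WT, and 0.64, 1.41 and 3.53 in GF LKO. It fell by 1.33 ± 0.38 in SPF (2.52-fold, adjusted p = 0.00955) and by 2.10 ± 0.22 in GF mice (4.29-fold, adjusted p = 3.88e-10), the largest fall of a member in GF livers. The GF call held in all 50 alternative fits. The SPF call was lost without the libraries of ZT2 (-1.05, adjusted p = 0.0642), of ZT10 (-1.18, adjusted p = 0.0531), or of ZT2 and ZT6 (-0.90, adjusted p = 0.239). At ZT22, GF WT livers had 4.55, 9.02 and 9.47 CPM and GF LKO livers 1.23, 0.64 and 1.17, a fall of 2.90 ± 0.40 (adjusted p = 0.000550). These sets were far apart. Its microbiota changes were 0.27 ± 0.25 in WT (adjusted p = 0.420) and -0.49 ± 0.37 in LKO (adjusted p = 0.315).

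Lcn2, the siderophore-binding protein that neutrophils also make, was low in most livers and high in few. The lowest, median and highest levels of Lcn2 were 1.2, 3.53 and 37.2 CPM in SPF WT, 1.63, 2.06 and 24.1 in SPF LKO, 1.26, 2.46 and 8.82 in GF WT, and 1.31, 3.33 and 16.8 in GF LKO. Every arm overlapped with the others. Lcn2 fell by 1.26 ± 0.41 in GF WT relative to SPF WT livers (2.40-fold, adjusted p = 0.0168). That fall rested on ZT2 and ZT6, where SPF WT livers had 37.2, 4.83 and 3.44 CPM and 6.23, 18.2 and 36.1 CPM. Without the libraries of those times the change was -0.05 (adjusted p = 0.927), and it no longer passed without SPF WT ZT2 replicate 1 (-0.91, adjusted p = 0.0603) or SPF WT ZT6 replicate 3 (-0.91, adjusted p = 0.0614). Only 2 of the 7 neutrophil markers passed the filter on low counts, and both fell in GF livers of either genotype. Of all genes tested, 17.7% were called lower in GF WT and 18.4% in GF LKO. The part of these markers in the change of Lcn2 was not tested. With genotype, Lcn2 was -0.94 ± 0.47 in SPF (adjusted p = 0.149; -1.46 and 0.0144 without the 4 libraries) and 0.35 ± 0.26 in GF mice (adjusted p = 0.328).

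Hp, the most abundant member, had small changes. Its lowest, median and highest levels were 2150.0, 2767 and 4728 CPM in SPF WT, 1736, 2125 and 4286 in SPF LKO, 2628, 3336 and 4133 in GF WT, and 2227, 2619 and 4202 in GF LKO. In LKO livers it fell by 0.38 ± 0.10 in SPF (1.30-fold, adjusted p = 0.00628) and by 0.31 ± 0.07 in GF mice (1.24-fold, adjusted p = 0.000268). In GF LKO livers it rose by 0.26 ± 0.09 relative to SPF LKO (1.198-fold, adjusted p = 0.0213), and in GF WT it was 0.19 ± 0.08 (adjusted p = 0.0786). The SPF genotype call was lost without the libraries of ZT2 (adjusted p = 0.0570) or ZT6 (adjusted p = 0.0606), and the GF LKO call without those of ZT2, ZT10 or ZT22 (highest adjusted p = 0.113). At ZT2, SPF WT livers had 4728, 2515 and 2810.0 CPM and SPF LKO livers 1736, 2342 and 1740.0. The lowest WT value there was just above the highest LKO value.

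Apcs, the pentraxin, was the only member called higher in LKO than in WT livers, in SPF and in GF mice. The lowest, median and highest levels of Apcs were 39.5, 62.8 and 132 CPM in SPF WT, 56.7, 102 and 153.5 in SPF LKO, 63.2, 91.9 and 180.0 in GF WT, and 117.5, 166 and 229 in GF LKO. Loss of Bmal1 and loss of the microbiota each went with a higher level. Apcs rose with genotype by 0.55 ± 0.13 in SPF (1.47-fold, adjusted p = 0.00207) and by 0.71 ± 0.12 in GF mice (1.64-fold, adjusted p = 7.69e-06). It rose in GF livers by 0.60 ± 0.15 in WT (1.51-fold, adjusted p = 0.00220) and by 0.77 ± 0.10 in LKO mice (1.70-fold, adjusted p = 3.84e-07). All 4 calls held in all 50 alternative fits of each comparison. Every GF liver of either genotype lay above the SPF WT median. At ZT18, SPF WT livers had 53.7, 69.5 and 61.4 CPM, SPF LKO 56.7, 76.8 and 105, GF WT 76.8, 87.1 and 86.5, and GF LKO 148.5, 203.5 and 140.2. The GF LKO set lay above all others, and the SPF LKO set overlapped with both WT sets, its lowest value being that of the library labelled SPF LKO ZT18 replicate 1.

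Each time was then left out of the pooled comparisons in turn, which was chosen after seeing the data. Saa1, Saa2 and Lcn2 in the WT microbiota comparison, and Saa1, Saa2, Orm3 and Hp in the SPF genotype comparison, depended on ZT2 and ZT6. In the LKO microbiota comparison Orm1 and Hp lost their calls without both times (0.23 and 0.22, adjusted p = 0.319 and 0.204). Saa3, Saa4 and Apcs did not: without both times, the SPF genotype changes were -0.85 for Saa3 (adjusted p = 0.0145), -0.998 for Saa4 (adjusted p = 0.0338) and 0.84 for Apcs (adjusted p = 0.000128). Leaving out the 4 libraries as well, Saa1 was -1.497 (adjusted p = 3.06e-05) and Orm3 -2.02 (adjusted p = 2.52e-05) in that comparison. Hp rose in GF WT livers once ZT2 and ZT6 were left out (0.36, adjusted p = 0.00106).

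**Figure D3:**
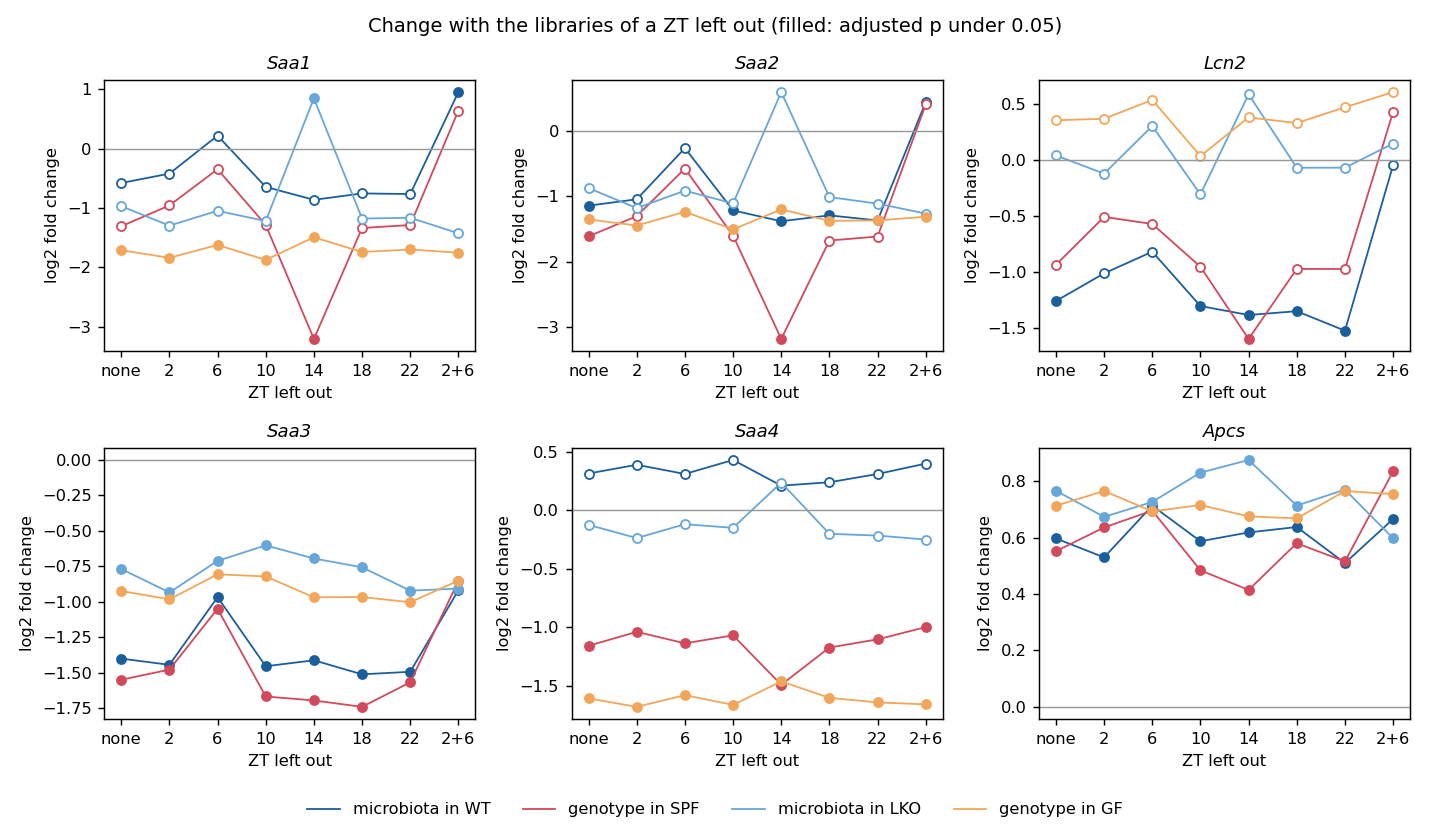
Log2 fold change of Saa1, Saa2, Lcn2, Saa3, Saa4 and Apcs in the 4 pooled comparisons (y axis) with all libraries and with the libraries of given times left out (x axis). For Saa1 in WT mice, the microbiota change goes from -0.58 with all libraries to 0.96 without ZT2 and ZT6, while Apcs stays above 0 in each.

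To ask whether the members followed the time of day, a cosine and a sine of 24 h period were fitted in each arm. In SPF WT livers 4 of 10 members were rhythmic, against 15.5% of genes tested. Saa1 peaked at ZT5.1 with a peak to trough ratio of 9.37 (adjusted p = 0.00307), Saa2 at ZT5.0 with 11.04 (adjusted p = 0.00128), Orm2 at ZT5.3 with 4.54 (adjusted p = 0.00382) and Lcn2 at ZT4.6 with 7.60 (adjusted p = 0.0153). All 4 thus peaked in the middle of the light phase, and these calls held in all 24 alternative fits. The ZT6 mean of Saa1 was 271 CPM ± 148 (SD, n = 3), against 26.3 ± 6.05 at ZT18. With 3 mice a time, single livers weighed heavily: at ZT2, 1 of 3 mice was high (298 CPM), and at ZT6 all 3 were at 135 CPM or more.

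In SPF LKO livers 5 members were called rhythmic (22.2% of genes), namely Saa1, Saa2, Saa4, Orm1 and Orm2, with peaks from ZT12.4 to ZT13.7. Only Saa4 kept its call with the library labelled SPF LKO ZT14 replicate 2 dropped, with a peak at ZT13.1 (adjusted p = 0.00266; 13.3 and 0.00217 with all libraries). Saa1 then had an adjusted p of 0.342. In GF WT livers Saa4 and Apcs were rhythmic (2 of 10; 27.7% of genes), Saa4 with a peak at ZT14.6 and a ratio of 2.14 (adjusted p = 0.00962) and Apcs at ZT2.3 with 1.85 (adjusted p = 0.00691). Mean Apcs in GF WT ran from 145 CPM ± 22.8 at ZT2 to 73.6 ± 11.3 at ZT14. In GF LKO livers Saa3 (peak ZT21.7, adjusted p = 0.0336), Orm1 (ZT2.5, adjusted p = 0.0492) and Apcs (ZT2.6, adjusted p = 0.0468) passed, 3 of 10 against 36% of genes, each close to the threshold and each lost without any of several single mice. Saa1 and Saa2 passed in neither GF arm with all libraries (lowest adjusted p = 0.689). Without GF LKO ZT10 replicate 2, Saa2 passed in GF LKO livers with a peak at ZT22.6 (adjusted p = 0.0246), and Saa1 had an adjusted p of 0.0773.

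**Figure D4:**
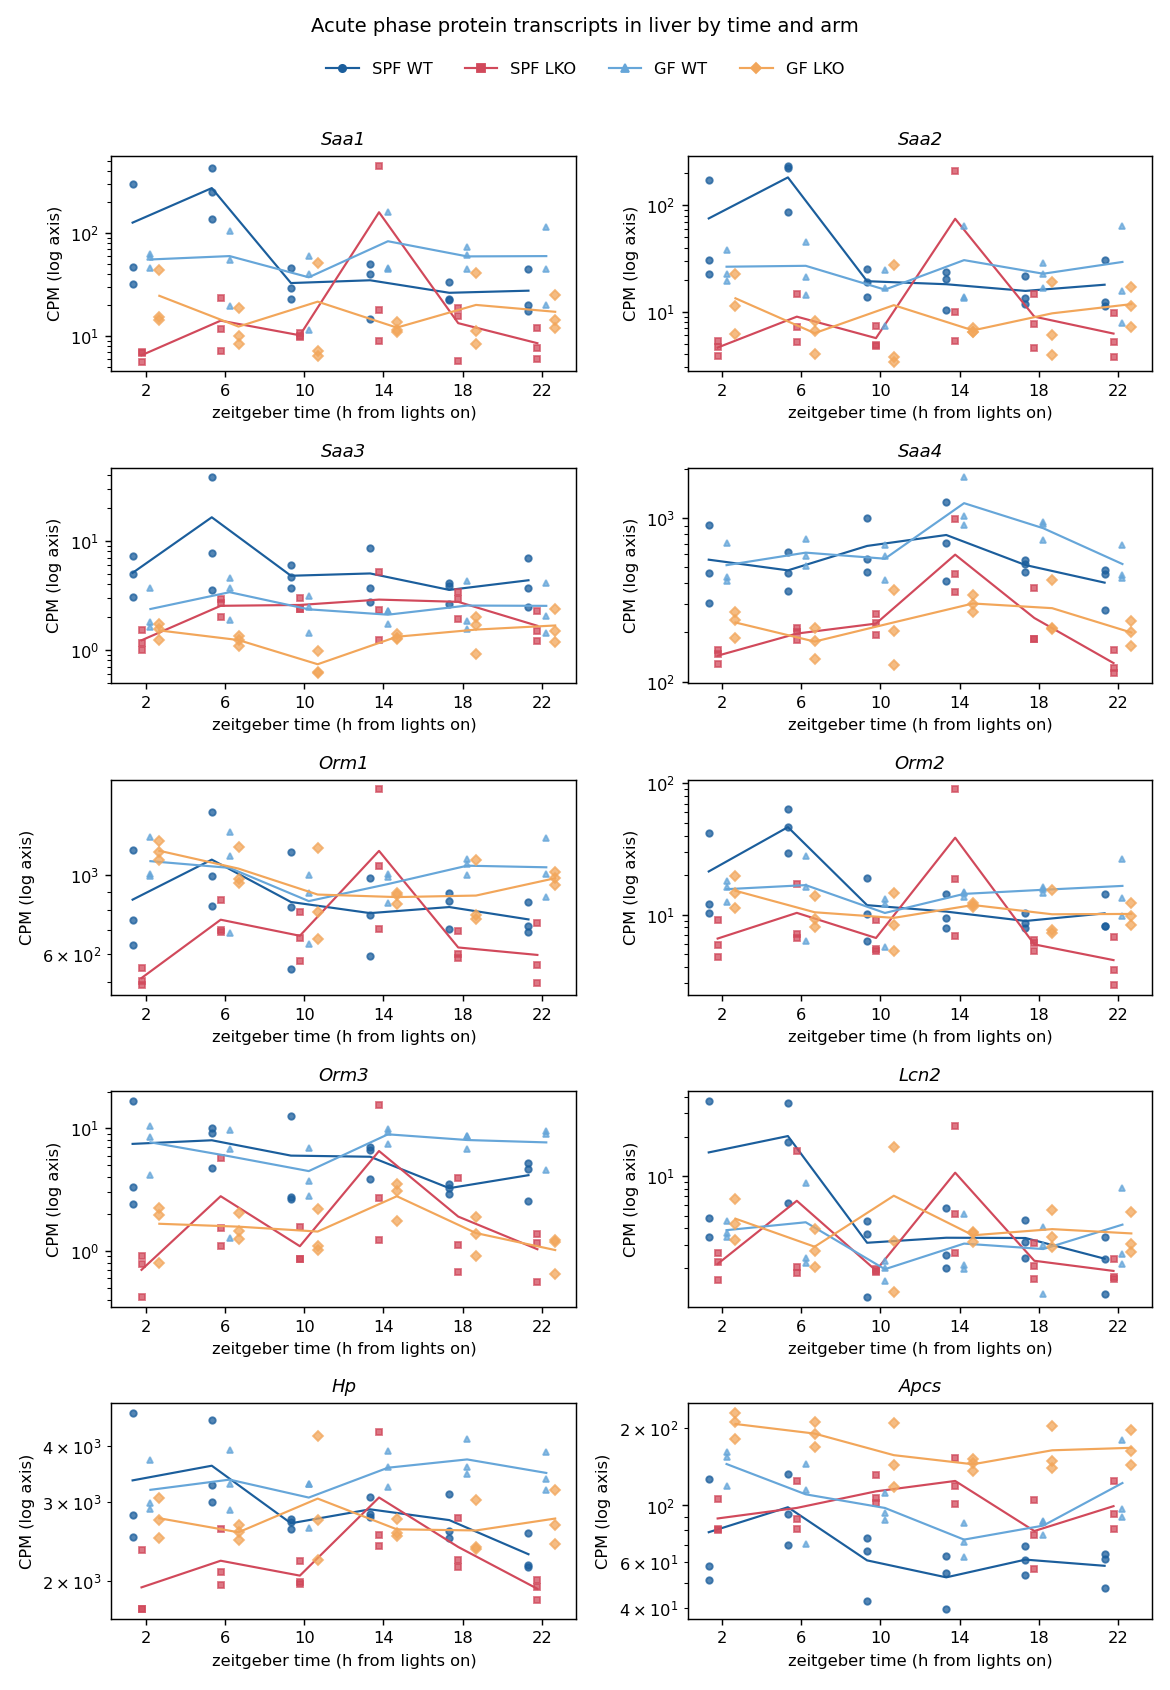
CPM (log axis) of the 10 members against ZT in hours, 1 panel a gene; points are mice, lines join the means of 3 mice, and colors mark the 4 arms. Saa1, Saa2, Orm2 and Lcn2 have their highest SPF WT mean at ZT6, and the high SPF LKO mean at ZT14 is carried by 1 point.

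A rhythm called in 1 arm and not in another need not differ, so the difference of the cosine and sine terms was tested. With genotype in SPF mice, Saa1 (adjusted p = 0.00483), Saa2 (adjusted p = 0.00455) and Orm2 (adjusted p = 0.0478) changed, 3 of 10 against 1.06% of genes. Without the 4 libraries Saa1 (0.0394) and Saa2 (0.0361) still passed by adjusted p and Orm2 (0.196) did not. Between GF LKO and SPF LKO, Saa1 (adjusted p = 0.0436), Saa3 (adjusted p = 0.0340) and Orm1 (adjusted p = 0.0198) changed, 3 of 10 against 4.96%. There, without the 4 libraries, the adjusted p was 0.605 for Saa1, 0.0492 for Saa3 and 0.0428 for Orm1. Between GF WT and SPF WT no member passed with edgeR (0.0442% of genes), and 6 were under 0.05 before adjustment. DESeq2 gave an adjusted p to 7 members, of which 1, Saa1, passed. Saa1 had an adjusted p of 0.165 with edgeR, so that a loss of its rhythm in GF WT livers was not shown by the main test. With genotype in GF mice 0 members passed (6.04% of genes), and none had an unadjusted p under 0.05.

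Other genes of the acute phase response, taken from lists of known members, did not move as 1 block. Of 29 other positive acute phase genes tested in WT, 6 were higher and 0 lower in GF livers, and of 28 in LKO, 15 were higher and 3 lower. With genotype, 4 were higher and 5 lower of 28 in SPF, and 10 higher and 5 lower of 29 in GF mice. Over all genes tested, 14.2% were called higher and 17.7% lower in GF WT, 18.1% and 18.4% in GF LKO, 11.6% and 11.5% with genotype in SPF, and 15.6% and 15.2% with genotype in GF mice. The median changes of the listed genes were 0.08, 0.23, -0.08 and 0.05. Mt1, the zinc-binding metallothionein, rose in GF livers by 1.30 ± 0.45 in WT (adjusted p = 0.0244) and by 2.18 ± 0.52 in LKO (adjusted p = 0.00123). C9, a terminal complement component, rose by 0.65 ± 0.11 in GF LKO (adjusted p = 1.46e-05) and rose with genotype in both states. Hamp, the iron hormone hepcidin, fell by 0.61 ± 0.24 in GF LKO (adjusted p = 0.0396). Crp, the other short pentraxin, rose in GF livers by 0.29 ± 0.11 in WT (adjusted p = 0.0428) and by 0.43 ± 0.08 in LKO (adjusted p = 6.87e-05), and had a genotype change of -0.14 in SPF and -0.005 in GF mice.

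Negative acute phase genes, which drop during the response, were mostly higher without microbes. In GF WT livers 12 of 12 rose, and in GF LKO livers 8 rose and 1 fell. With genotype, 1 rose and 4 fell in SPF, and 3 rose and 6 fell in GF mice. Of all genes tested, 14.2% were called higher and 17.7% lower in GF WT, and 18.1% and 18.4% in GF LKO. With genotype the shares were 11.6% higher and 11.5% lower in SPF, and 15.6% and 15.2% in GF mice. Apoa1, the main protein of high density lipoprotein, rose by 0.53 ± 0.06 in GF WT (adjusted p = 6.96e-08) and by 0.54 ± 0.08 in GF LKO (adjusted p = 2.78e-06). Ahsg, the fetuin that binds mineral, rose by 0.46 ± 0.06 and 0.65 ± 0.06. Apoa2 rose by 0.30 ± 0.07 and 0.48 ± 0.07. Alb rose by 0.37 ± 0.07 in GF WT and fell by 0.35 ± 0.14 in GF LKO livers, the latter with an adjusted p of 0.0474.

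Cytokine ligands, signals upstream of the members, were mostly too low to test. Of 10 cytokine ligand genes, 3 or 4 passed the filter on low counts. In GF livers 0 of 3 rose and 1 fell in WT, and 0 of 4 rose and 3 fell in LKO. Of all genes tested, 14.2% were called higher and 17.7% lower in GF WT, and 18.1% and 18.4% in GF LKO. Il1a, an interleukin 1 ligand, fell in GF livers by 0.49 ± 0.15 in WT (adjusted p = 0.0110) and by 0.38 ± 0.13 in LKO (adjusted p = 0.0193). Il1b was -0.74 ± 0.31 in GF WT (adjusted p = 0.0625) and fell by 0.69 ± 0.24 in GF LKO (adjusted p = 0.0240). Clcf1, a cytokine of the interleukin 6 family, fell by 1.29 ± 0.25 in GF LKO (adjusted p = 0.000114) and was too low to test in WT. With genotype 1 of 4 ligands tested rose in SPF mice, where 11.6% of all genes tested were called higher, and 0 of 3 changed in GF mice.

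Of 32 receptor and signal transducer genes, 1 was higher and 7 lower in GF WT, 3 and 7 in GF LKO, and 1 and 7 with genotype in each microbial state. The shares called lower over all genes tested were 17.7%, 18.4%, 11.5% and 15.2%. The 7 of 32 is not far above the microbiota shares and further above those for genotype, most of all in SPF mice. Whether the list stands apart was not tested. Tlr5, the flagellin receptor, fell in all 4 comparisons, by 0.36 ± 0.14 in GF WT, by 1.14 ± 0.15 in GF LKO, by 0.79 ± 0.13 with genotype in SPF and by 1.57 ± 0.16 with genotype in GF mice. Il22ra1, a receptor chain for interleukin 22, fell by 0.80 ± 0.20 in GF WT and by 0.94 ± 0.16 in GF LKO livers. Il6ra, the interleukin 6 receptor, fell by 0.69 ± 0.21 with genotype in SPF (adjusted p = 0.0144) and rose by 0.56 ± 0.20 in GF LKO (adjusted p = 0.0229). Its partner Il6st fell by 0.20 ± 0.07 in GF LKO and by 0.23 ± 0.08 with genotype in GF mice. Socs3, the feedback inhibitor of this pathway, fell by 0.63 ± 0.23 in GF LKO (adjusted p = 0.0308) and was -0.69 ± 0.28 in GF WT (adjusted p = 0.0599). Stat3, Cebpb and Cebpd passed in none of the 4 comparisons (lowest adjusted p = 0.190).

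Among 8 genes for the glucocorticoid receptor and its targets, 0 changed in GF WT, and 2 were higher and 1 lower in GF LKO. With 8 genes, the counts in GF LKO are not far from the shares of all genes there, 18.1% called higher and 18.4% lower. Tsc22d3 rose by 0.62 ± 0.15 (adjusted p = 0.00174), Tat rose by 0.59 ± 0.18 (adjusted p = 0.00906) and the receptor Nr3c1 fell by 0.19 ± 0.05 (adjusted p = 0.00466). With genotype 1 rose and 0 fell in SPF, and 1 rose and 1 fell in GF mice. The matching shares of all genes were 11.6% higher with 11.5% lower for SPF livers, then 15.6% with 15.2% for GF livers. The list did not stand apart from these shares.

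The genes outside the list whose levels ran most like those of a member were found by Spearman correlation over the 72 libraries, which share depth and arm differences. For Saa1 these were Wfdc21 (0.83), Fgl1 (0.80), AW112010 (0.79), C8a (0.77) and Prtn3 (0.76). For Orm2 they were Fgl1 (0.79), Hpx (0.74), H2-T22 (0.69), Ang (0.68) and Cd302 (0.65), and for Lcn2 Fgl1 (0.64), Hpx (0.59), Slc41a2 (0.50), Serpina10 (0.48) and Cpb2 (0.45). Apcs stood apart, its nearest genes being Csrp3 (0.87), Apof (0.87), Tmem176a (0.84), Ctsl (0.84) and Crybb3 (0.83). Apcs and Saa1 had a correlation of -0.10 over all 72 libraries but 0.65 within SPF WT, 0.35 within SPF LKO, 0.35 within GF WT and 0.75 within GF LKO. In the same order of arms, Wfdc21 and Saa1 had 0.27, 0.68, 0.20 and 0.70. For Fgl1 and Saa1 the values were 0.75, 0.74, 0.34 and 0.70, and for Tmem176a and Apcs 0.515, 0.42, 0.70 and -0.001.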

How the data were processed

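Liver RNA-seq was analysed from 72 samples, 3 for each of 4 arms and 6 times. The deposited values are raw read counts per gene. Per the labels and the methods of the study, the authors made stranded mRNA libraries and sequenced single-end reads of 50 bases. They aligned the reads to mm10 with STAR 2.6.1b and counted them with featureCounts 2.0.0. By default featureCounts leaves out reads that map to several places, and the methods of the study name no other setting. Replicates are separate mice. Groups came from the labels.

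The 55573 Ensembl identifiers were matched to symbols in a GRCm38 annotation (55394 matched). Counts were tested with edgeR 4.0.16 in R 4.3.3 (TMM scaling, filterByExpr, quasi-likelihood test, Benjamini-Hochberg over all genes tested, threshold 0.05): pooled pairs of arms, the interaction, single times, a 24 h cosine, and its difference between arms. CPM values are counts per 1000000 of the library total after adjustment of that total by its TMM factor. The sign ± marks the SE of a log2 change or the SD of a level. Correlations used log2 CPM with a prior count of 2. No pair of libraries held identical counts (0 found). The totals of 17369927 to 22076113 counts a library limit the precision of members at a few CPM.

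Alternatives were DESeq2 1.42.0, DESeq2 size factors, no filter, ZT as a covariate, a replicate block, 6 time means in place of the cosine, leaving out single libraries, and leaving out the 4 libraries that stood apart. Leaving out times was added after seeing the data. The fits were tested on simulated data. All members are named. From each companion list the 3 called genes with the largest microbiota change are named, beside Stat3, Socs3, Il6ra, Il6st, Cebpb, Cebpd, Crp and Alb, and for Saa1, Lcn2, Orm2 and Apcs the 5 genes most like them. Members and lists were chosen with earlier results of these data known. The lists for sinusoidal endothelial cells, stellate cells and cholangiocytes, 4 markers each, had at most 2 called in either direction in any pooled comparison. In GF WT livers 2 of 4 endothelial and 2 of 4 cholangiocyte markers were lower, against 17.7% of all genes tested. With genotype in GF mice 2 of 4 stellate cell markers were higher, against 15.6%. Of the 4 lymphocyte and 3 adipocyte markers, 0 or 1 passed the filter on low counts in each comparison, so these lists show little.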

Additional observations from a re-analysis of the deposited data

Results flagged for a closer look

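The 24 h rhythm of 5 members differed between arms by the test of the cosine and sine terms, that of Saa1 in 2 comparisons. With genotype in SPF mice the adjusted p was 0.00483 for Saa1, 0.00455 for Saa2 and 0.0478 for Orm2. For these 3 the SPF WT peaks at ZT5.1, ZT5.0 and ZT5.3 stood against fitted SPF LKO peaks at ZT13.5, ZT13.7 and ZT12.4. The fitted SPF LKO peaks hung on the library labelled SPF LKO ZT14 replicate 2. Leaving out the 4 libraries that stood apart, the adjusted p was 0.0394, 0.0361 and 0.196.

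Between GF LKO and SPF LKO the adjusted p was 0.0436 for Saa1, 0.0340 for Saa3 and 0.0198 for Orm1. Without the 4 libraries it was 0.605, 0.0492 and 0.0428. The fitted peak of Orm1 was at ZT12.7 in SPF LKO and at ZT2.5 in GF LKO, and that of Saa3 at ZT12.9 and ZT21.7.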

How the results depend on the processing

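In all 50 alternatives of each pooled comparison, Saa3 and Apcs kept direction and call in all 4 comparisons, Saa4 in both genotype comparisons, and Saa1, Saa2, Orm3 and Hp in GF mice. The changes of direction detailed here came from 1 library or from ZT2 and ZT6. Members not called with all libraries turned as well. Lcn2 in the LKO microbiota comparison changed sign in 16 of 49 alternatives (-0.31 to 0.99). In the SPF genotype comparison the highest value was 0.64 for Saa1, 0.41 for Orm2 and 0.43 for Lcn2. Without ZT2 and ZT6 the WT microbiota change was 0.96 for Saa1 and 0.45 for Saa2 (0.999 and 0.47 with the 4 libraries also out), and the SPF genotype change of Saa2 was 0.41. The LKO microbiota change of Saa1 was 0.79 without the 4 libraries, 0.85 without ZT14 and 0.72 without SPF LKO ZT14 replicate 2, and that of Orm2 was 0.56, 0.69 and 0.57. With 1 library left out these ranged from -1.135 to 0.72 for Saa1 and from -0.18 to 0.57 for Orm2. These settings on times, and single-library fits of the rhythm difference and interaction, were chosen after seeing the data. The cause was not tested.

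The number of members called moved as follows. In the LKO microbiota comparison it was 2 without ZT2 and 2 without ZT2 and ZT6 (4 with all). In the SPF genotype comparison it was 10 without the 4 libraries, 10 without ZT14, 3 without ZT2 and 3 without ZT2 and ZT6 (6 with all). Rhythmic members numbered 8 with no filter and 1 without the 4 libraries in SPF LKO (5 with all), 1 in GF WT and 0 in GF LKO with 6 time means (2 and 3 by the cosine). Changed rhythms in WT between microbial states numbered 1 with DESeq2 and 3 with no filter (0 otherwise), and in LKO 6 with no filter and 0 with 6 time means (3 by the cosine); with genotype in SPF mice 6 time means gave 0 (3 by the cosine). Single-time calls were 9 with DESeq2, 26 with no filter and 2 without the 4 libraries in the WT microbiota comparison (1 with edgeR), 11 with DESeq2 and 40 with no filter in LKO (5), and with no filter 42 with genotype in SPF (21) and 37 in GF mice (13).

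With 1 library left out, members called ranged from 2 to 5 (WT microbiota), 4 to 6 (LKO microbiota), 5 to 10 (SPF genotype), 7 to 8 (GF genotype) and 0 to 0 (interaction). Rhythmic members ranged from 4 to 5 in SPF WT, 1 to 8 in SPF LKO, 2 to 2 in GF WT and 0 to 3 in GF LKO. With 1 library or 1 replicate number left out, changed rhythms ranged from 0 to 0 and 0 to 5 between microbial states in WT and LKO, and from 0 to 4 and 0 to 1 with genotype in SPF and GF mice. With single libraries alone they ranged from 1 to 5 in LKO, 2 to 4 with genotype in SPF and 0 to 0 in GF mice. Single-time calls without 1 library ranged from 0 to 3, 4 to 9, 17 to 23 and 11 to 17 in the same order of comparisons. The lowest WT microbiota count, 2, came without SPF WT ZT6 replicate 3, and the highest SPF genotype count, 10, without SPF LKO ZT14 replicate 2. Rhythmic members in SPF LKO numbered 8 without ZT6 replicate 1, 3 without ZT2 replicate 1, ZT14 replicate 1 or ZT22 replicate 3, and 1 without ZT14 replicate 2.

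A replicate block gave 2 rhythmic members in SPF LKO, and 0 changed rhythms both in LKO between microbial states and with genotype in SPF mice. Replicate numbers were not taken as pairing: same-numbered mice had correlations over 0.1 in 5, 3, 5 and 2 of 18 pairs in the 4 comparisons (medians 0.01, -0.01, 0.02 and -0.02). Depth limits Saa3, Orm3 and Lcn2 most, at a few CPM each.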
